A study of Mus musculus with 14 samples.

Results

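Bone marrow stromal clones that can form cartilage were compared with clones that cannot. A library counted as chondrogenic-capable when its label carries the letter C, which held for 5 of the 14 libraries (OAC1, OAC2, OAC3, OC3 and AC3). The 9 others, labelled OA1 to OA3, O1 to O3 and A1 to A3, formed the non-chondrogenic side. The letters record what each clone became when it was assayed in culture, namely osteogenic (O), adipogenic (A) or chondrogenic (C), so the grouping used no expression value. The 5 capable libraries were tripotent (OAC), osteo-chondrogenic (OC3) or adipo-chondrogenic (AC3), and the 9 others osteo-adipogenic (OA), osteogenic (O) or adipogenic (A). Each capable group has a matched group that differs from it by the letter C alone, so OAC was set against OA, OC3 against O and AC3 against A. All cells, on both sides, came from the flushed femora and tibiae of adult C57Bl/6 mice carrying the irtTA-GBD*-TAg transgene, in which dexamethasone with doxycycline switches on large T antigen, a viral protein that immortalizes the cells while it is made. All were taken for strand-specific sequencing of oligo(dT)-selected mRNA after 3 days without the inducers. Libraries numbered 1 or 2 are single clones from different mice, and libraries numbered 3 are pools of several further clones from those mice. OC3 and AC3 are therefore 1 pool each with no replicate. The capable side holds 3 pools among 5 libraries and the other side 3 among 9, so pooling is uneven between them. The p-values therefore rest on how these particular cultures vary.

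Cartilage forms when mesenchymal cells condense and switch on Sox9, a transcription factor required for every step from condensation to the mature chondrocyte. Sox9 acts together with Sox5 and Sox6 on the genes of cartilage matrix, among them Col2a1, the main collagen of cartilage, and Acan, the large proteoglycan aggrecan that holds water in the tissue. Signals of the TGF-beta, BMP, FGF and Hedgehog families start and pace the process. The RNA came from cultures without the inducers and not from the differentiation assay, so the comparison asks whether the clones differ before they are made to differentiate.

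Depth was even, with 16888190 to 26076539 counted reads per library. TMM scaling compares libraries after trimming the genes with the most extreme ratios between libraries or the most extreme abundance. Levels are CPM, a gene's reads as a share of the library total after this scaling. Such shares of a library cannot tell fewer cells of a type from less RNA per cell. OA2 and O1, both non-chondrogenic single clones, stood apart. The deviation of OA2 from the mean library went up with transcript GC content (Spearman correlation over genes 0.653), and that of O1 did too (0.512). The whole comparison, the named genes and the list medians were recomputed without them. Of 14 blood cell markers 10 were in the table, summing to 6.47 to 17.3 CPM in the capable libraries and 6.37 to 50.1 CPM in the others. The defining Ptprc was at 0 in 4 of 5 and 8 of 9. Csf1r, on the same list, was detected in every library (0.794 to 4.28 CPM and 0.525 to 4.96 CPM). All 10 endothelial markers were in the table (6.94 to 16.2 CPM and 9.78 to 18.6 CPM), with the defining Cdh5 at 0 in 4 of 5 and 6 of 9. Egfl7, on that list, was also detected in every library (3.79 to 9.97 CPM and 4.75 to 14.8 CPM). Of 10 Schwann and neural markers 8 were in the table (12.8 to 70.5 CPM and 9.05 to 97.0 CPM), mostly Tubb3 and S100b, and of 10 skeletal muscle markers 8 (15.2 to 83.2 CPM and 9.09 to 76.7 CPM), mostly Acta1 and Des, which stroma also makes. The part of other cells in the results was not tested.

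No gene separated the 2 sides at the threshold of the main test. edgeR, with the background (OA, O or A) as a covariate and a false discovery rate (FDR) under 0.05 as the threshold, called 0 of 13896 tested genes higher (0%) and 0 lower (0%) in the chondrogenic-capable libraries, and the lowest FDR was 0.809. No gene list described below could therefore hold a gene past the FDR, so a 0 there is no result about its members. At an unadjusted p under 0.05 there were 244 genes higher (1.76%) and 467 lower (3.36%), together 5.12% of the tested genes. Single libraries moved these counts, to 113 higher and 99 lower without AC3, 511 and 774 without OA3, 260 and 190 without OA2, 182 and 274 without OAC3, and 197 and 245 without OC3. That split turned with the scaling, since with DESeq2 size factors in place of TMM the same fit gave 362 higher and 288 lower. DESeq2 called 2 genes higher (0.0145%), Synpo2 with an adjusted p of 0.00915 and Emb with 0.0192. It called 1 gene lower (0.00723%), the predicted gene Gm7027 with 0.0406, which is named because it was the only one. Libraries with C lay above every matched library in all 3 backgrounds for 51 genes (0.367%) and below them for 99 (0.712%). Over all libraries, the 5 with C lay above the 9 without for 6 genes (0.0432%) and below for 17 (0.122%). The precision was moderate, as the 95% confidence interval of the log2 fold change lay within ±1 for 56.5% of genes.

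The label was not borne out by the 3 chondrogenic markers at this stage. Sox9 (ENSMUSG00000000567) was present in every library, at 12.4, 8.74 and 19.8 CPM in OAC1 to OAC3, 25.4 in OC3 and 24.4 in AC3. The non-chondrogenic values were 11.7, 24.8 and 23.9 CPM in OA1 to OA3, 16.7, 27.4 and 13.6 CPM in O1 to O3, and 6.17, 18.7 and 13.0 CPM in A1 to A3. The groups overlapped over almost their whole range, with a mean of 18.2 ± 7.34 CPM in the 5 capable libraries and 17.3 ± 6.98 CPM in the 9 others (SD). The log2 fold change of Sox9 was 0.10 ± 0.35 (SE), with a 95% interval of -0.66 to 0.86 and an edgeR FDR of 0.918. Its direction was not stable, being 0.52 among pools, -0.81 among single clones and -0.22 without AC3.

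Sox6 (ENSMUSG00000051910), the partner of Sox5 and Sox9, was near 0 in most libraries. It stood at 0.0883, 0.252 and 1.07 CPM in OAC1 to OAC3, 11.5 CPM in OC3 and 0 in AC3. It stood at 0.1002, 0 and 1.97 CPM in OA1 to OA3, 0.446, 4.10 and 1.5 CPM in O1 to O3, and 0, 0.0810 and 0 in A1 to A3. Sox6 was thus high in the pool OC3, with O2 next, and the adipogenic and adipo-chondrogenic libraries had almost none. A count of 0 allows up to 0.119 CPM in AC3 and up to 0.191 CPM in the library with the least reads after scaling. The log2 fold change was 0.56 ± 1.11 (FDR 0.851, edgeR), and -0.68 without OC3. The 95% Poisson interval in OC3 was 10.3 to 12.9 CPM, which covers counting error only, since duplicate molecules were not marked.

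Acan (ENSMUSG00000030607) did not reach the expression filter and was not tested. OC3 held 158 Acan reads, 5.99 CPM with a counting interval of 5.09 to 7.00. The other capable libraries held 14, 0 and 2 reads in OAC1 to OAC3 and 1 in AC3, against 0, 5 and 15 in OA1 to OA3, 0, 0 and 11 in O1 to O3, and 0, 0 and 1 in A1 to A3. The Acan signal of the capable side was therefore a signal of the osteo-chondrogenic pool, and tripotent and adipo-chondrogenic libraries lay within the range of the non-chondrogenic ones.

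**Figure D1:**
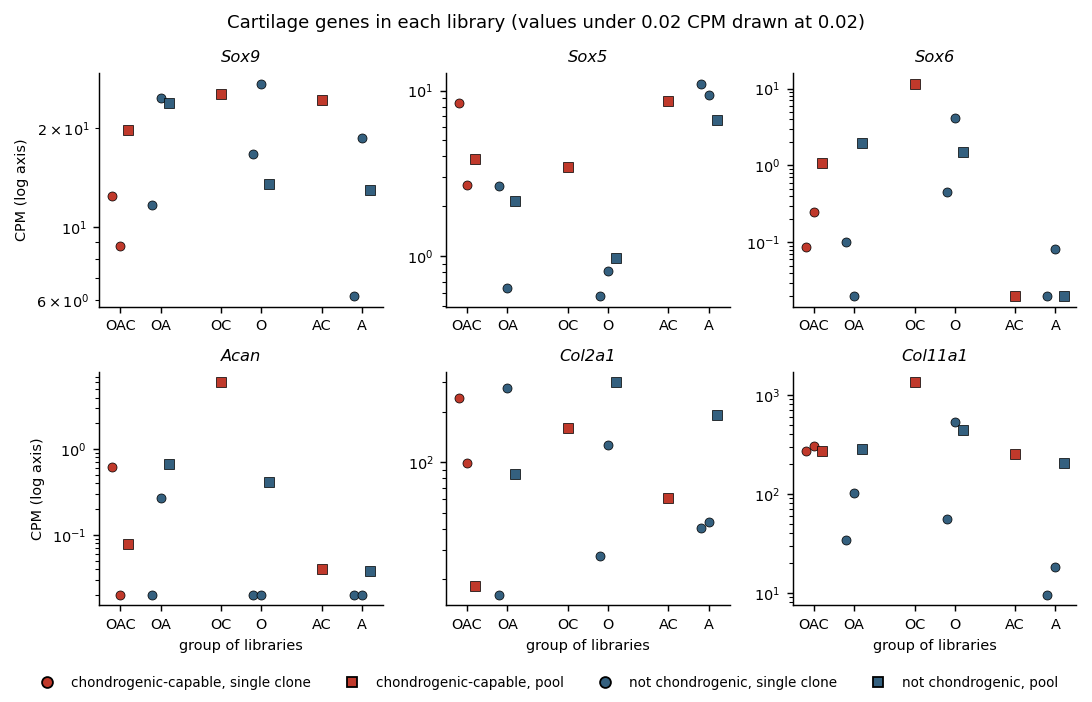
CPM on a log axis for 6 cartilage genes in each of the 14 libraries, with each capable group (red) left of its matched group (blue), circles for single clones and squares for pools. Sox9 overlaps fully, Sox6 and Acan are highest in OC3 (11.5 and 5.99 CPM), and Sox5 is higher in OAC and OC than in their matched groups but not in AC.

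Sox5 (ENSMUSG00000041540) had the lowest p of the 9 tested cartilage transcription factors, and it did not pass the FDR. Its levels were 8.38, 2.70 and 3.87 CPM in OAC1 to OAC3, 3.45 CPM in OC3 and 8.69 CPM in AC3. The matched libraries had 2.66, 0.643 and 2.15 CPM in OA1 to OA3, 0.573, 0.812 and 0.9752 CPM in O1 to O3, and 11.0, 9.36 and 6.64 CPM in A1 to A3. Every tripotent library lay above every osteo-adipogenic one and OC3 lay above all O libraries, while AC3 lay inside the range of the adipogenic libraries, which had the highest Sox5 of all. The log2 fold change was 1.34 ± 0.43 (unadjusted p 0.00866, FDR 0.809, edgeR). By background it was 1.45 for OAC over OA, 2.12 for OC over O and -0.05 for AC over A, and a test of whether these 3 differ gave an unadjusted p of 0.210 in edgeR. Sox5 kept its sign among pools (0.99) and among single clones (1.77), and without any background term the log2 fold change was 0.48.

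The other cartilage transcription factors did not move together. Of 13 on the list, 9 passed the expression filter, 5 with a positive and 4 with a negative log2 fold change. Their median was 0.10 against -0.02 over all tested genes. By background it was -0.20 for OAC over OA, 0.40 for OC over O and -0.83 for AC over A. None of the 9 passed the FDR, and 1 higher and 1 lower had an unadjusted p under 0.05 in edgeR. The lower one was Zfp219, a zinc-finger cofactor of Sox9, at 45.2, 52.6 and 35.6 CPM in OAC1 to OAC3, 28.7 CPM in OC3 and 29.6 CPM in AC3, against 48.1 to 57.1 CPM in OA, 46.6 to 113.1 CPM in O and 41.9 to 61.5 CPM in A (-0.61 ± 0.26, unadjusted p 0.0397, edgeR). Zfp219 overlapped only between OAC2 and the OA libraries. With GC offsets, which remove each library's trend on GC content, its log2 fold change was -0.33 (unadjusted p 0.0865). Mef2c, a factor of hypertrophic cartilage and of bone, ranged from 0.189 CPM in OAC2 to 122.4 CPM in OC3 on the capable side and from 0.0411 CPM in A1 to 106.2 CPM in O2 on the other. Trps1, a GATA-type repressor active in growth plates, had 0.70 ± 0.60, and Arid5b, a chromatin cofactor of Sox9, had 0.12 ± 0.28.

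Cartilage matrix genes were mostly unexpressed on both sides. Of the 21 matrix genes in the table, 9 passed the expression filter, and the growth plate genes Matn1, Col9a1, Col9a2, Ucma, Snorc and Cnmd were at most 0.573 CPM in every library. Hapln1, the link protein that ties aggrecan to hyaluronan, reached 1.93 CPM in OC3 and 2.38 CPM in OA3 and at most 0.277 CPM elsewhere. The 9 tested genes split into 5 positive and 4 negative with a median of 0.03, 0 passed the FDR, and 0 higher and 1 lower had an unadjusted p under 0.05. That one was Matn4, a matrilin, at 4.55, 1.20 and 1.34 CPM in OAC1 to OAC3, 1.44 CPM in OC3 and 2.38 CPM in AC3. On the other side OA2 had 22.1 CPM and A1 19.2 CPM, while the remaining 7 libraries lay between 0.487 and 5.59 CPM (-1.72 ± 0.76, unadjusted p 0.0431, edgeR). Without OA2 the Matn4 value was -0.93 (unadjusted p 0.240, edgeR). The median of the matrix list was -0.08 for OAC over OA, 0.08 for OC over O and 0.69 for AC over A. That list median was 0.235 with GC offsets and 0.31 without OA2 and O1. It was 0.15 among pools and 0.30 among single clones.

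Col2a1 (ENSMUSG00000022483), the cartilage collagen itself, was well expressed and did not follow the label. It stood at 241.6, 99.5 and 18.2 CPM in OAC1 to OAC3, 159.8 CPM in OC3 and 61.03 CPM in AC3. The others had 16.2, 277.3 and 85.4 CPM in OA1 to OA3, 27.8, 127.5 and 298.8 CPM in O1 to O3, and 40.3, 44.0 and 191.8 CPM in A1 to A3. Both sides spanned more than a 10-fold range, and the log2 fold change of -0.16 ± 0.77 (95% interval -1.82 to 1.51, edgeR FDR 0.942) turned sign under several settings. Among the pools alone each capable pool lay below its matched pool, with a log2 fold change of -1.58 (edgeR, unadjusted p 0.00277, Col2a1 FDR 0.390).

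Col11a1 (ENSMUSG00000027966), the collagen that nucleates cartilage fibrils and is also made by bone and other stroma, had the largest positive log2 fold change of the matrix list, 1.45 ± 0.70 (unadjusted p 0.0606, edgeR). Its levels were 271.8, 304.3 and 272.8 CPM in OAC1 to OAC3, 1332 CPM in OC3 and 250.3 CPM in AC3. The others had 33.8, 102.2 and 280.6 CPM in OA1 to OA3, 55.2, 527.6 and 439.9 CPM in O1 to O3, and 9.54, 18.3 and 203.2 CPM in A1 to A3. OC3 and AC3 lay above all their matched libraries, whereas OAC overlapped OA through the pool OA3. The 5 values at or below 102.2 CPM were all single clones without C. Comp, a cartilage and tendon glycoprotein, was higher in AC3, at 11.98 CPM against 1.11 to 1.89 CPM in A, lower in OC3, at 6.44 CPM against 8.96 to 10.6 CPM in O, and overlapped between OAC and OA (1.04 ± 0.55, unadjusted p 0.0806, edgeR). The log2 fold change was 0.03 ± 0.64 for Col11a2 and -0.11 ± 0.36 for Col9a3, both minor cartilage collagens.

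Hypertrophic cartilage genes, which mark the late chondrocyte, gave 5 positive and 5 negative values among 10 tested, a median of -0.04 and 0 genes past the FDR. By background the list median was -0.98 for OAC over OA, 0.62 for OC over O and 0.39 for AC over A. OC and AC are 1 pool each, and whether these medians differ was not tested. The list median was 0.42 among pools, -0.96 among single clones and -0.42 without OA2 and O1. The member with the lowest p was Spp1, osteopontin, which bone and hypertrophic cartilage both secrete. It stood at 643, 2061 and 903 CPM in OAC1 to OAC3, 571 CPM in OC3 and 1345 CPM in AC3, against 519, 319 and 1241 CPM in OA1 to OA3, 162, 143 and 227 CPM in O1 to O3, and 955, 1233 and 914 CPM in A1 to A3 (0.95 ± 0.36, unadjusted p 0.02001, edgeR). OC3 and AC3 lay above their matched libraries and OAC overlapped OA. With GC offsets Spp1 had 0.65 (unadjusted p 0.0988). Col10a1, the collagen of hypertrophic cartilage, had 0.21 ± 0.77, and Ihh, the Hedgehog ligand of the growth plate, had 8.30 CPM in OC3 and at most 0.671 CPM in the other capable libraries, against at most 4.67 CPM, in O2, on the other side.

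Enzymes of chondroitin sulfate synthesis, which build the sugar chains of aggrecan, were expressed evenly. Their summed level was 1240 to 1340 CPM in the capable libraries and 1150 to 1350 CPM in the others. Of 24 tested enzymes and transporters 11 had positive and 13 negative values, with a median of -0.03 and 0 past the FDR. Chsy1, a chondroitin polymerase, had the lowest p, with 108.0, 158.6 and 117.5 CPM in OAC1 to OAC3, 110.0 CPM in OC3 and 75.7 CPM in AC3, against 79.8 to 105.7 CPM in OA, 51.9 to 90.1 CPM in O and 64.8 to 88.6 CPM in A (0.41 ± 0.17, unadjusted p 0.0324, edgeR). Chsy1 was above its matched libraries in OAC and OC and inside their range in AC.

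Signalling pathways of cartilage development, including Wnt and Notch, which can also restrain it, gave 0 genes past the FDR, like all tested genes (0%). The median log2 fold change was 0.19 over 21 tested BMP pathway genes, -0.05 over 23 TGF-beta pathway genes, 0.13 over 14 FGF pathway genes, 0.25 over 12 Hedgehog genes, 0.16 over 37 Wnt genes and -0.09 over 11 Notch genes, against -0.02 over all tested genes. Tgfb3, Bmp4, Bmp2, Runx2, Sp7, Pparg, Cxcl12 and Col8a1 are named outside the fixed rule, after their values were seen. Among ligands, Tgfb2 had 0.57 ± 0.30, Tgfb3 -0.10 ± 0.44, Bmp4 -0.01 ± 0.31 and Bmp2 -0.25 ± 1.03. Among receptors, Acvr2a, an activin and BMP receptor, had 1.19 ± 0.62, with AC3 at 58.7 CPM where the other capable libraries had 3.31 to 14.9 CPM, and 0.37 without AC3. Fgfr2 had 0.48 ± 0.27 (unadjusted p 0.0957, edgeR), with 0.46 for OAC over OA, 0.52 for OC over O and 0.49 for AC over A. Its levels overlapped between OAC and OA, OC3 lay inside the range of O, and AC3 lay above A. Notch4, the lowest p of the Notch list, had -1.33 ± 0.71, and -0.67 without OA3 (unadjusted p 0.403, edgeR).

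In the Hedgehog and Wnt lists the members with the lowest p were co-receptors. Cdon, which binds Hedgehog ligands at the cell surface, stood at 108.5, 43.4 and 67.6 CPM in OAC1 to OAC3, 142.3 CPM in OC3 and 97.3 CPM in AC3, against 39.5 to 74.7 CPM in OA, 42.8 to 90.7 CPM in O and 39.1 to 74.9 CPM in A (0.70 ± 0.27, unadjusted p 0.0257, edgeR). Lrp6, a Wnt co-receptor, stood at 188.0, 163.8 and 229.9 CPM in OAC1 to OAC3, 249.1 CPM in OC3 and 327.7 CPM in AC3. The others had 143.4, 36.0 and 159.4 CPM in OA1 to OA3, 62.6, 160.8 and 186.5 CPM in O1 to O3, and 236.0, 112.1 and 134.3 CPM in A1 to A3. Lrp6 was above its matched libraries in all 3 backgrounds (0.86 ± 0.34, unadjusted p 0.0267, edgeR), and 0.73 with GC offsets. Neither passed the FDR, which was 0.809 for both.

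The 12 genes with the lowest p among those higher in the capable libraries (means of at least 5 CPM) had log2 fold changes of 0.63 to 1.97 and unadjusted p of 0.00028 to 0.00409 in edgeR. All 12 had an FDR of 0.809 and so did not pass. Synpo2 (ENSMUSG00000050315), an actin-binding protein of muscle and stromal cells, led them. It stood at 22.8, 3.96 and 16.6 CPM in OAC1 to OAC3, 35.4 CPM in OC3 and 21.0 CPM in AC3. The others had 1.35, 3.11 and 4.17 CPM in OA1 to OA3, 14.96, 8.69 and 12.04 CPM in O1 to O3, and 7.81, 4.98 and 7.82 CPM in A1 to A3. A single inversion, OAC2 just under OA3, kept Synpo2 from separating in every background. Its log2 fold change was 1.97 ± 0.39 with a 95% interval of 1.11 to 2.82, 1.66 among pools and 2.55 among single clones.

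Emb (ENSMUSG00000021728), encoding the membrane glycoprotein embigin, was the second. It stood at 18.3, 16.5 and 24.2 CPM in OAC1 to OAC3, 20.8 CPM in OC3 and 62.3 CPM in AC3, against 7.57, 3.86 and 5.56 CPM in OA1 to OA3, 8.09, 9.54 and 15.3 CPM in O1 to O3, and 27.8, 8.47 and 32.2 CPM in A1 to A3. Each capable library exceeded every matched one, although A1 and A3 lay above the OAC libraries, so the sides overlapped when backgrounds were ignored (1.503 ± 0.32). Smoc1, a secreted calcium-binding protein of basement membranes that is known to modulate BMP signalling, behaved alike. It stood at 5.08, 7.10 and 16.3 CPM in OAC1 to OAC3, 17.2 CPM in OC3 and 34.9 CPM in AC3, against 1.02 to 2.51 CPM in OA, 7.09 to 9.17 CPM in O and 9.72 to 31.9 CPM in A (1.63 ± 0.42).

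Pde4d, a phosphodiesterase that breaks down cyclic AMP, had a smaller but even difference (0.69 ± 0.18). Its levels were 31.2, 31.5 and 28.2 CPM in OAC1 to OAC3, 16.4 CPM in OC3 and 46.4 CPM in AC3, against 16.2 to 17.7 CPM in OA, 8.66 to 16.2 CPM in O and 26.14 to 37.7 CPM in A. The margin was narrow in the osteogenic background, where OC3 and O3 were 16.4 and 16.2 CPM. Itga1, the collagen-binding integrin alpha chain, was 24.3 to 39.2 CPM in OAC, 35.4 CPM in OC3 and 111.9 CPM in AC3, against 12.5 to 18.5 CPM in OA, 7.96 to 25.1 CPM in O and 5.11 to 44.4 CPM in A (1.49 ± 0.42). Col12a1, a fibril-associated collagen of tendon, bone surface and cartilage, was abundant on both sides, at 3653, 2651 and 4223 CPM in OAC1 to OAC3, 6609 CPM in OC3 and 2350 CPM in AC3, against 1942 to 3116 CPM in OA, 2895 to 3597 CPM in O and 652 to 1305 CPM in A (0.77 ± 0.21). OC3 and AC3 exceeded all matched libraries for Col12a1, and OAC2 lay inside the OA range.

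The other 6 were Ptgfr, the prostaglandin F receptor (1.14 ± 0.27), Sema3e, a secreted guidance cue (1.35 ± 0.33), Ecm2, a matrix protein (1.18 ± 0.32), Pdlim5, a cytoskeletal scaffold (0.63 ± 0.17), Eif4e3, a cap-binding protein (0.75 ± 0.21), and Gpx8, a peroxidase of the endoplasmic reticulum (0.99 ± 0.28). Of all 12, chosen by the lowest p of this comparison, 5 separated within every background (Emb, Smoc1, Pde4d, Pdlim5 and Itga1). Over all libraries 0 separated. Of all tested genes, 0.367% lay higher within every background and 0.0432% over all libraries. With GC offsets 7 kept an unadjusted p under 0.05, and Ptgfr (0.56), Sema3e (0.74), Ecm2 (0.45), Pdlim5 (0.28) and Gpx8 (0.67) did not.

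**Figure D2:**
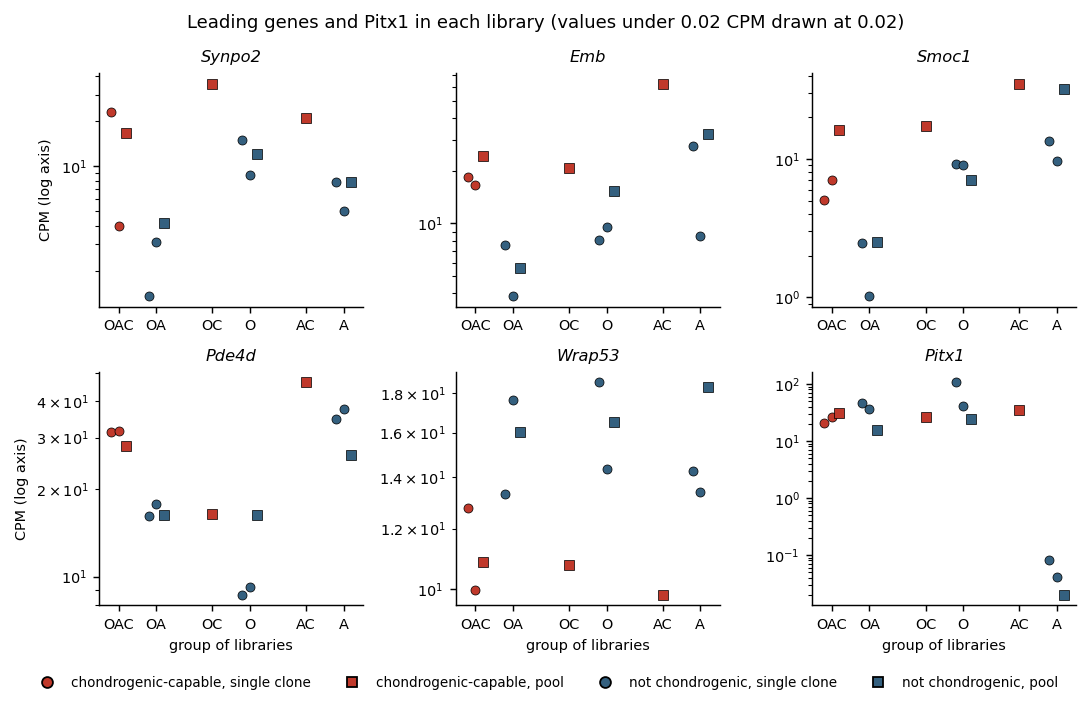
CPM on a log axis for 5 leading genes and Pitx1 in each library, drawn like the plot of cartilage genes. Emb, Smoc1 and Pde4d lie above the matched group in all 3 backgrounds, Wrap53 lies below in all, and Pitx1 differs only in AC against A (34.2 CPM against at most 0.0823 CPM).

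The 12 genes with the lowest p among those with lower levels had smaller differences, log2 fold changes of -0.37 to -0.68, with unadjusted p of 0.00116 to 0.00526 and an FDR of 0.809 in edgeR. They were genes of steady, moderate expression. Rpl6, a protein of the large ribosomal subunit, led them at 180.6, 158.1 and 147.9 CPM in OAC1 to OAC3, 149.0 CPM in OC3 and 140.5 CPM in AC3, against 217.8 to 249.1 CPM in OA, 170.8 to 238.9 CPM in O and 189.2 to 216.0 CPM in A (-0.49 ± 0.12). Near-identical processed copies of ribosomal protein genes can take reads, so the level of Rpl6 is uncertain. Wrap53 (ENSMUSG00000041346), a telomerase and Cajal body protein, separated even with backgrounds ignored, at 12.8, 10.0 and 10.9 CPM in OAC1 to OAC3, 10.8 CPM in OC3 and 9.84 CPM in AC3, against 13.3 to 17.6 CPM in OA, 14.3 to 18.6 CPM in O and 13.4 to 18.4 CPM in A (-0.55 ± 0.16). The gap between the highest capable and the lowest other library was 12.8 against 13.3 CPM.

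Eif6, a factor that keeps ribosomal subunits apart, had the largest difference of the 12, -0.68 ± 0.19, at 74.0 to 134.9 CPM in the capable libraries and 88.5 to 203.1 CPM in the others. Ict1, a peptidyl-tRNA hydrolase of the mitochondrial ribosome, was 24.2 to 31.2 CPM against 32.0 to 56.3 CPM and did not overlap (-0.60 ± 0.18). Tsen54, a subunit of the tRNA splicing endonuclease, was 14.3 to 21.1 CPM against 21.4 to 30.6 CPM (-0.51 ± 0.15), and Arl6ip4, a splicing-related protein, 47.3 to 62.4 CPM against 63.6 to 83.3 CPM (-0.39 ± 0.11). The others were Bre, a subunit of a deubiquitinating complex (-0.48), Mrpl12, a mitochondrial ribosomal protein (-0.57), Gtf3a, which starts transcription of a small ribosomal RNA (-0.43), Tmem120a, a membrane protein (-0.53), Sap30bp (-0.54) and Gltp, a glycolipid transfer protein (-0.37). The 12 were chosen by the lowest p of this comparison, so counts of separation among them are a description only. Of the 12, 9 separated within every background (0.712% of all tested genes) and 4 over all libraries (0.122%). With GC offsets 8 kept an unadjusted p under 0.05 in edgeR. Arl6ip4 (-0.14), Gtf3a (-0.22), Gltp (-0.20) and Tsen54 (-0.27) did not. Without AC3 Tmem120a had -0.33.

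**Figure D3:**
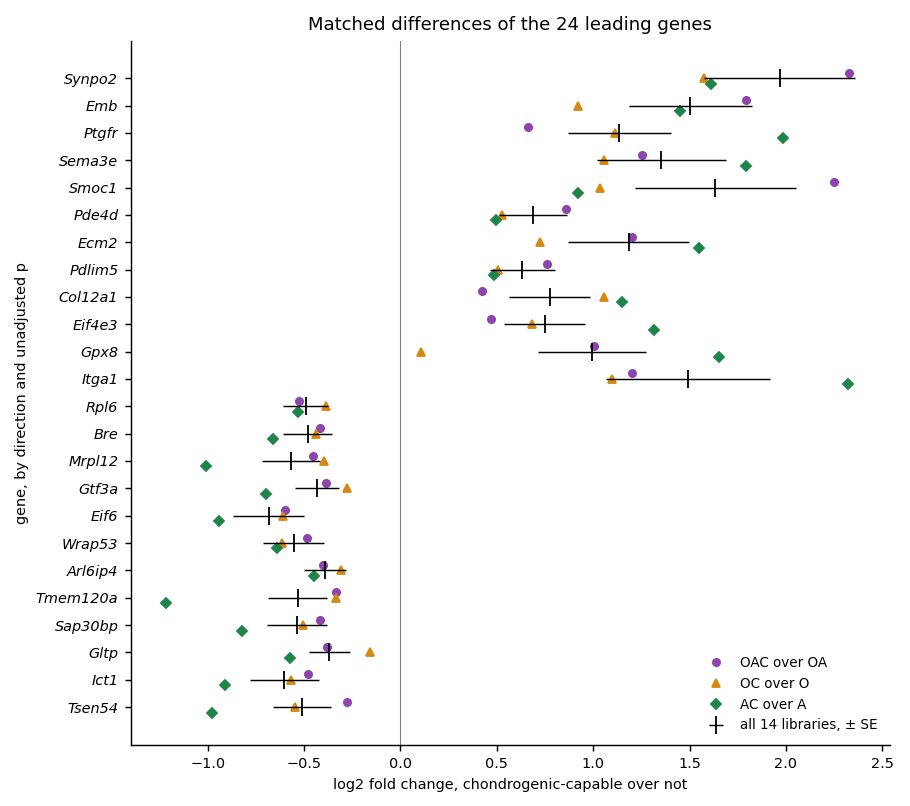
Log2 fold change of the 24 leading genes in each matched comparison (coloured points) and over all 14 libraries (black, ± SE), with positive values for higher levels in the capable libraries. The genes were chosen by the overall value, so the common sign of the matched values is a description, and all 24 had an FDR of 0.809.

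Transcript GC content moved with the comparison. Across genes the log2 fold change had a Spearman correlation of -0.608 with GC content and 0.308 with exonic length. The tenth of genes lowest in GC, at a median of 39.8%, had a median log2 fold change of 0.44, and the tenth highest, at 59.7%, had -0.28. Genes with an unadjusted p under 0.05 followed this, with a median GC of 45.8% for the higher and 55.3% for the lower ones, against 49.9% over all tested genes. The 3 capable pools lay at the low-GC end, with a correlation of -0.545 for OAC3, -0.54 for OC3 and -0.536 for AC3. The capable single clones lay toward the other end, with 0.346 for OAC1 and 0.356 for OAC2. The non-chondrogenic pools had -0.431 for OA3, -0.442 for O3 and -0.196 for A3, and the single clones ran from -0.469 in O2 to 0.653 in OA2. The correlation of the log2 fold change with GC was -0.492 among pools alone, -0.245 among single clones alone and -0.365 without OA2 and O1. With GC offsets it was 0.0161, and edgeR called 0 genes higher (0%) and 0 lower (0%), with 263 higher (1.89%) and 274 lower (1.97%) at an unadjusted p under 0.05. The part of GC content in the values of single genes was not tested beyond these offsets.

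**Figure D4:**
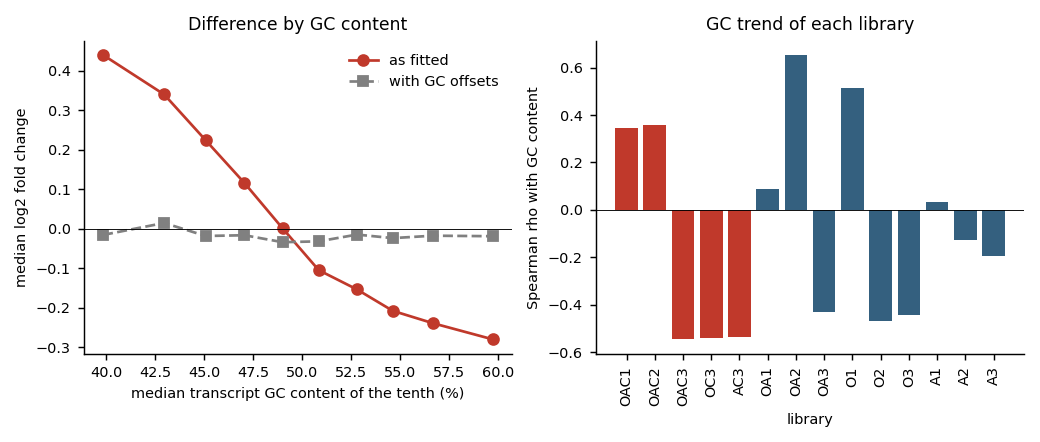
Left, median log2 fold change (capable over not) in 10 equal bins of genes by transcript GC content, as fitted (red) and with GC offsets (grey). Right, Spearman correlation between each library's deviation from the mean library and GC content, capable libraries in red and the others in blue. The fitted medians run from 0.44 to -0.28 across the bins, and OA2 (0.653) and O1 (0.512) have the highest correlation.

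Pooling was uneven between the sides, so the leading genes were read within pools and within single clones. All 24 had the same sign among the 3 pools with C against the 3 without as in the whole comparison, and the same sign among single clones, where the contrast is OAC1 and OAC2 against OA1 and OA2. With a term for pool or clone all 24 kept an unadjusted p under 0.05. The full comparison contains these same libraries, and the 24 genes were picked by their low p in it. Neither their common sign nor the p kept with that term is therefore independent support. At the level of all genes edgeR called 0 genes in either subset. Of the 13896 genes tested in each subset, 1051 were higher and 679 lower among pools at an unadjusted p under 0.05 in edgeR. Among single clones 104 were higher and 21 lower at that p. Both subsets had more higher than lower genes, where the whole comparison had 244 higher (1.76%) and 467 lower (3.36%).

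The matched comparisons asked whether the chondrogenic difference depends on what else a clone can become. edgeR called 0 genes for OAC against OA (0%, with 163 genes or 1.17% at an unadjusted p under 0.05) and 0 for OC against O (0%, with 99 genes or 0.712%). For AC against A it called 1 gene (0.00720%, with 530 genes or 3.81% at an unadjusted p under 0.05), namely Pitx1. OC3 and AC3 are single libraries, so their spread was assumed to equal that of the replicated groups. DESeq2 called 0 genes for OAC against OA and for OC against O, and 6 higher (0.0432%) and 15 lower (0.108%) for AC against A, Pitx1 among the higher.

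Pitx1 (ENSMUSG00000021506) is a homeobox factor that specifies the hindlimb and remains on in hindlimb skeletal cells. It stood at 34.2 CPM in AC3, from 862 reads with a counting interval of 32.0 to 36.6 CPM, against 0.0823, 0.0405 and 0 CPM in A1 to A3, which held 3 reads in all. The ratio was 857, with a 95% counting interval of 292 to 4170, and the log2 fold change 9.55 ± 0.98 with an edgeR FDR of 0.0218. The other backgrounds went no such way, with 20.5, 26.0 and 31.4 CPM in OAC1 to OAC3 against 45.8, 35.8 and 15.7 CPM in OA1 to OA3, and 26.7 CPM in OC3 against 105.9, 40.4 and 24.5 CPM in O1 to O3. All libraries but the 3 labelled A thus held Pitx1, whatever their chondrogenic label. The Pitx1 call was not stable, as it was kept without OA3, O1, O3 or OC3 (FDR 0.00739 to 0.0279) and lost in 9 of 13 leave-outs. The FDR was then 0.0678 without OAC1, 0.0740 without OAC2, 0.0592 without OAC3, 0.0538 without OA1, 0.0612 without OA2, 0.0581 without O2, 0.165 without A1, 0.336 without A2 and 0.153 without A3, while the log2 fold change stayed between 9 and 10.4. The cause of the lost calls was not tested.

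A test of whether the chondrogenic difference varied between the 3 backgrounds called 0 genes in edgeR (0%), with 140 (1.01%) at an unadjusted p under 0.05. Pitx1 had the lowest p of the genes the naming rule admits (9.67e-06, FDR 0.134), and the likelihood ratio test of DESeq2 called Pitx1 alone (adjusted p 3.38e-14). The next was Arhgef5, a guanine nucleotide exchange factor, at 10.0 CPM in AC3 against 54.7, 65.6 and 74.3 CPM in A1 to A3. It overlapped between OAC, at 30.4 to 79.6 CPM, and OA, at 34.3 to 48.3 CPM, and OC3 had 64.1 CPM against 66.2 to 70.4 CPM in O (unadjusted p for the difference between backgrounds 0.00184, edgeR).

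Lists for the other fates of these cells gave 0 genes past the FDR, like all tested genes (0%). The 27 osteoblast genes tested split into 14 positive and 13 negative with a median of 0.01, and the 22 adipocyte genes into 9 and 13 with a median of -0.19. Runx2, which commits cells to bone, had 0.12 ± 0.32, and Sp7, its downstream partner, -0.31 ± 0.84. Pparg, which commits cells to fat, had 0.03 ± 0.42. Lpl, lipoprotein lipase, had the lowest p of the fat list and was 693 CPM in AC3 against 114.4 to 245.9 CPM in A, with 56.4 to 237.4 CPM in OAC against 41.3 to 56.1 CPM in OA and 3.68 CPM in OC3 against 0.244 to 11.4 CPM in O (1.29 ± 0.64, unadjusted p 0.0661, edgeR). Of 15 tendon and joint genes tested, 7 were positive and 8 negative with a median of 0.00, and their lowest p was that of the collagen-binding proteoglycan Fmod, with 1010 CPM in OC3 against 154.3 to 523.2 CPM in O, 78.6 CPM in AC3 against 13.6 to 34.8 CPM in A, and no such difference for OAC over OA (-0.07). Without AC3 the Fmod value was 0.48 (unadjusted p 0.262, edgeR).

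Stromal lists held more positive than negative values and 0 genes past the FDR, where all tested genes gave 0% too. The 12 marrow niche genes had 9 positive values and a median of 0.36, the 18 stromal surface genes 13 positive and 0.30, and the 19 collagens outside cartilage 15 positive and 0.25, where 47.5% of all tested genes were positive. With GC offsets these medians were 0.31, 0.15 and 0.43. By background the niche median was 0.33 for OAC over OA, -0.12 for OC over O and 0.96 for AC over A, the surface median 0.06, 0.34 and 0.48, and the collagen median -0.07, 0.12 and 0.72. Without the pool AC3 the overall medians were 0.23 for the niche, 0.16 for surface genes and 0.0048 for collagens. Foxc1, a transcription factor that maintains the marrow niche, had 0.38 ± 0.15, Pdgfra, a receptor used to sort stromal progenitors, 0.70 ± 0.27 (0.37 without AC3, unadjusted p 0.209, edgeR), and Col8a1, a short-chain collagen, 1.11 ± 0.43. Cxcl12, the main niche chemokine, had 0.23 ± 0.33. Among limb patterning genes (11 of 18 positive, median 0.17) the lowest p was that of Sall1, a zinc-finger factor, which was 4.55, 0 and 0.198 CPM in OAC1 to OAC3, 2.31 CPM in OC3 and 0.159 CPM in AC3, against at most 0.4933 CPM in OA, 1.16 CPM in O and 0 in all A libraries. Sall1 was thus seen mainly in OAC1, OC3 and O3, and its log2 fold change of 3.14 ± 1.29 was 1.62 without OAC1.

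Interferon response genes were mostly on the negative side, with 3 positive and 21 negative of 24, a median of -0.64 and -0.62 with GC offsets, and 0 past the FDR or at an unadjusted p under 0.05. The interferon median was -0.53 for OAC over OA, -1.09 for OC over O and -0.12 for AC over A. It was -0.37 without OA2 and O1, -0.26 among pools and -0.94 among single clones. The summed level of these genes ranged from 257 to 1600 CPM in the capable libraries and from 227 to 3020 CPM in the others, where A2 and OA2 were highest. Oas1a, an RNA sensor induced by interferon, had the lowest p (-1.88 ± 1.10, unadjusted p 0.112, edgeR), with 60.2 CPM in OA2 and 47.5 CPM in A2 and at most 20.8 CPM in any capable library. Without OA2 it had -0.83. The p53 and INK4 list had 4 positive and 12 negative of 16 and a median of -0.28, where 7294 of all 13896 tested genes were negative. The median was -0.03 for OAC over OA, -0.30 for OC over O and -0.95 for AC over A, and -0.04 overall without AC3. Trp53 itself was 129.7, 120.3 and 92.8 CPM in OAC1 to OAC3, 101.7 CPM in OC3 and 75.3 CPM in AC3, against 102.4 to 167.2 CPM in OA, 115.5 to 214.7 CPM in O and 135.8 to 150.8 CPM in A (-0.54 ± 0.20, unadjusted p 0.0173, edgeR).

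In the remaining lists 0 genes passed the FDR, as among all tested genes (0%). The median was 0.02 for 24 cell cycle genes, -0.02 for 12 glucocorticoid response genes, 0.11 for 19 hypoxia and glycolysis genes and -0.05 for 11 smooth muscle and pericyte genes. Their lowest p belonged to Mcm7 (-0.35 ± 0.28, and -0.07 without AC3), Zbtb16 (0.79 ± 0.37, and 0.49 without AC3), Epas1 (1.63 ± 0.66) and Notch3 (-0.40 ± 0.36, with -0.22 without OC3 and -0.27 without O1). Smooth muscle and pericyte genes summed to 5680 to 12700 CPM in the capable libraries and 3790 to 21400 CPM in the others. Among markers of other cells, the expression filter kept 4 for blood cells (median -0.07), 3 for endothelium (-0.42), 5 for Schwann cells and neurons (-0.04) and 2 for skeletal muscle (-0.33). Csf1r, Egfl7, S100b and Des had the lowest p there, and S100b reached 29.4 CPM in OAC2.

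**Figure D5:**
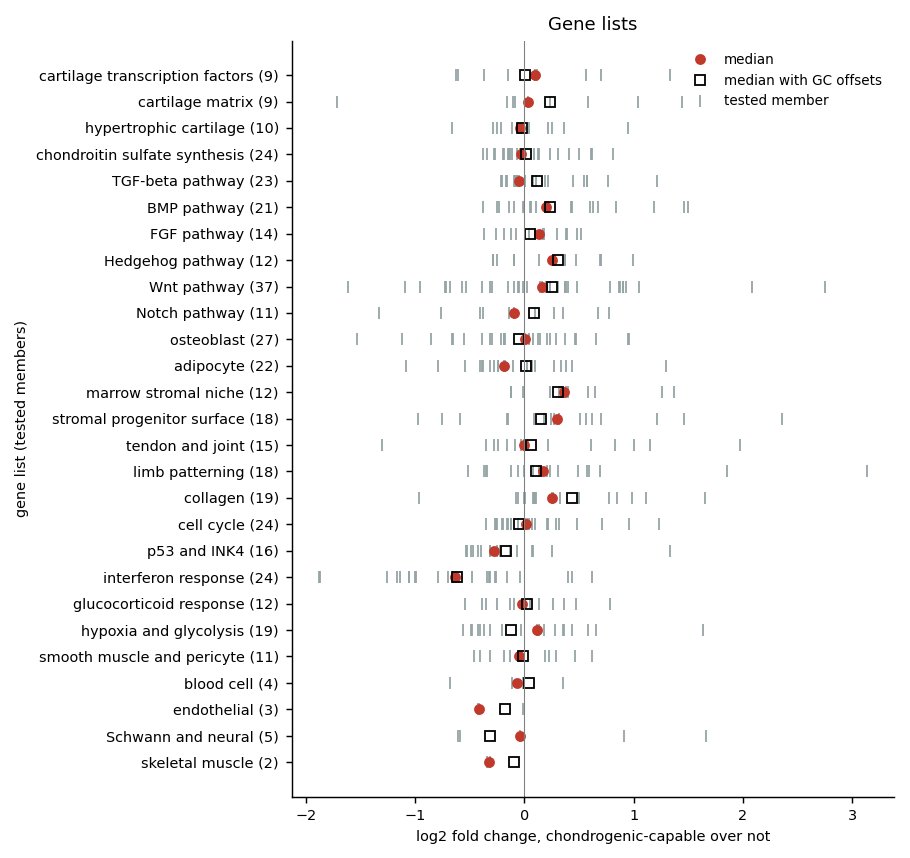
Log2 fold change (capable over not) of the tested members of 27 gene lists (grey ticks), with each list's median as fitted (filled circle) and with GC offsets (open square). Fitted medians of the cartilage lists are 0.10 for transcription factors, 0.03 for matrix and -0.04 for hypertrophic genes. With GC offsets they are 0.002, 0.235 and -0.02. The interferon response list has the lowest fitted median (-0.64).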

How the data were processed

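Strand-specific mRNA libraries of 14 stromal clones or pools were analysed from the deposited table of raw read counts per gene, which per the submitters' processing notes involved CASAVA 1.8.0, bedtools 2.11 and the mm9 build. Neither the aligner, the read filters nor the use of strand in counting is given in the sources used here, so overlapping, antisense and near-identical genes are uncertain. Libraries held 16888190 to 26076539 counted reads, and 3 reads, the limit that a count of 0 allows, equal 0.113 to 0.191 CPM. Intervals and this limit cover counting error only.

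A gene was kept where 3 or more of the 14 libraries reached 1 CPM (13896 of 23331). Testing used edgeR 4.0.16 with its quasi-likelihood F statistic (R 4.3.3, limma 3.58.1), after TMM scaling, with background (OA, O or A) and chondrogenic potential as terms, Benjamini-Hochberg adjustment over all tested genes and an FDR threshold of 0.05. The edgeR fit was also run on simulated counts with known changes. These were drawn without a GC trend or a pool effect, so that run does not bear on either. SE is the absolute log2 fold change over the square root of F. The matched comparisons and their difference used 6 group means. DESeq2 1.42.0 was an alternative, and its 57 missing adjusted p-values stayed missing. GC offsets were smooth trends per library on transcript GC content, from a GENCODE annotation of a later build used for names and composition only, which matched 96.5% of tested genes. Other alternatives were DESeq2 size factors, other filters, a pool term, a replicate block, subsets and leaving out each library.

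Named genes were those with a mean of at least 5 CPM in the higher group, predicted, unnamed and mitochondrial genes left out. Per direction they were up to 12 past the FDR by size, filled by the lowest unadjusted p. Sox9, Sox6, Acan, Sox5, Col2a1, the lowest p of each described list and the 2 leading interaction genes were added. The members and lists were chosen with earlier results of these data known.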

Additional observations from a re-analysis of the deposited data

Results flagged for a closer look

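Among 110 groups of values examined, 12 held 1 library far from the rest. The nominal rate of the rule, about 1 in 20, cannot be set against this count. The groups share the same libraries, and many of the genes were picked by low p in these data. In the capable libraries OC3 stood apart for Sox6 (11.5 CPM, next 1.07), Acan (5.99 CPM, next 0.618) and Ptgfr (77.9 CPM, next 33.2). AC3 stood apart there for Emb (62.3 CPM, next 24.2), Itga1 (112 CPM, next 39.2) and Acvr2a (58.7 CPM, next 14.9), and OAC2 for S100b (29.4 CPM, next 8.85). In the non-chondrogenic libraries O1 stood apart for Pitx1 (106 CPM, next 45.8) and Notch4 (6.24 CPM, next 3.00), O2 for Sox6 (4.10 CPM, next 1.97), O3 for Sall1 (1.16 CPM) and A3 for Smoc1 (31.9 CPM, next 13.6).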

How the results depend on the processing

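The edgeR count of 0 higher and 0 lower genes held under every edgeR alternative run, and DESeq2 called 2 higher and 1 lower. Its likelihood ratio test called 1 gene for the difference between backgrounds, where edgeR called 0. For AC against A, with alternatives added after seeing the data, DESeq2 called 21 genes, and leaving out 1 library gave 0 to 1 in edgeR. At an unadjusted p under 0.05 the counts were 244 higher and 467 lower, 1051 and 679 among pools, 104 and 21 among single clones, and 308 and 307 without OA2 and O1. Leaving out 1 library gave 113 (without AC3) to 511 (without OA3) higher and 99 (AC3) to 774 (OA3) lower. The replicate numbers were not taken as pairs in the main fit. Of 18 same-number correlations of deviations, 11 exceeded 0.1, and 7 of 12 libraries correlated best with their own number. The 6 among libraries numbered 3, the pools, were 0.295 to 0.759, and the others -0.585 to 0.467. The pools thus shared part of their deviations, and pooling is uneven between the sides. With the replicate block edgeR called 0 genes, with 151 higher and 271 lower at an unadjusted p under 0.05. With a pool term it also called 0 genes, with 151 higher and 251 lower at that p.

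All 24 leading genes kept their direction. Directions turned as follows (log2 fold change), and the cause was not tested. Among single clones these were Fmod -0.03335, Acvr2a -0.4622, Notch4 0.5677, Pitx1 -0.8021, Notch3 0.2828, Arhgef5 0.7309, Des 0.1677, Sox9 -0.8071 and Col2a1 0.1541. In OAC against OA alone they were Fmod -0.07133, Pitx1 -0.3216, Notch3 0.01825, Arhgef5 0.3219, Sox6 -0.547 and Sox9 -0.5577. Sox6 had -0.198 over matched pairs and -0.03441 with a pool term, where Sox9 had -0.07606, and Pitx1 had -0.1021 without lineage covariates. Col2a1 had 0.03586 with the replicate block, 0.04924 with GC offsets and 0.2843 with both, where Csf1r had 0.1054. Without OA2 and O1, a choice made after seeing the data, Col2a1 had 0.323 and Des 0.04838, and with GC offsets too 0.3527 and 0.1276. Leaving out 1 library gave ranges of -0.5631 to 3.075 for Pitx1, -0.6396 to 0.1912 for Arhgef5, -0.6795 to 2.258 for Sox6, -0.2155 to 0.2689 for Sox9 and -0.6019 to 0.47 for Col2a1.

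Of 27 list medians, 13 had the other sign among single clones, 13 in OAC against OA alone, 10 with GC offsets and 7 without AC3. Among single clones they were -0.226 for collagens, 0.298 for glucocorticoid response, -0.290 for hypoxia, 0.505 for blood cells and 0.0875 for p53 and INK4. In OAC against OA alone they were 0.303 for glucocorticoid response, 0.415 for endothelial, -0.670 for Schwann and neural, -0.0680 for collagens, -0.158 for Hedgehog, -0.203 for cartilage transcription factors, -0.0951 for hypoxia and 0.183 for TGF-beta genes. The hypoxia median was -0.120 with GC offsets and -0.160 without AC3. The smooth muscle median was -0.0142 with GC offsets, and 0.530 with GC offsets once OA2 and O1 were also left out.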

Other observations

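Counts for 3 further gene groups, chosen after values had been seen and given with no test, follow. The first includes Rpl6 and the second Mrpl12, both among the leading lower genes. Of 79 cytosolic ribosomal protein genes, 17 had a positive and 62 a negative log2 fold change, with a median of -0.176 (-0.166 with GC offsets), and 0 higher and 8 lower had an unadjusted p under 0.05 in edgeR. Their median was -0.322 for OAC over OA, -0.148 for OC over O and -0.0391 for AC over A. Of 75 mitochondrial ribosomal protein genes, 10 were positive and 65 negative, with a median of -0.214 (-0.25 with GC offsets) and 0 higher and 11 lower at that p. Of 29 Hox genes, 21 were positive and 8 negative, with a median of 0.145, which was 0.477 for OAC over OA, -0.286 for OC over O and -0.364 for AC over A. Over all tested genes 6602 values were positive and 7294 negative, and 1.76% were higher and 3.36% lower at an unadjusted p under 0.05 in edgeR. Near-identical copies make counts of single ribosomal protein genes uncertain.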
